A study of Mus musculus with 4 samples.

Results

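Growth factor receptor tyrosine kinases were followed in mouse embryonic fibroblasts (MEFs) through 10 genes, Pdgfra, Pdgfrb, Fgfr1, Fgfr2, Egfr, Met, Axl, Ddr1, Ddr2 and Epha2, taken by name from the 31700 genes on the array. The cells were p53+/+ (WT) or p53-/- MEFs, each kept without or with doxorubicin, a drug that breaks DNA. The study used these arrays to look for genes regulated by p53 that encode modulators of myosin. Each of the 4 conditions had 1 one-color Agilent array, and all arrays lay on 1 slide. The labels give no dose or time for the arrays, nor the number of embryos or cultures behind an RNA sample, so the cultures, genotype and place on the slide cannot be told apart. Nothing in the design measures how separate cultures vary, and a difference between arrays has no replicate check and no p-value.

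These receptors span the plasma membrane, bind a ligand outside the cell and phosphorylate tyrosines on themselves and on docked adaptors, which pass the signal to the RAS-MAPK and PI3K-AKT pathways. PDGF receptors drive the growth and migration of fibroblasts, whereas EGFR and MET are best known from epithelial cells. DDR1 and DDR2 are unusual in that their ligand is collagen, AXL is bound by the vitamin K dependent protein GAS6, and EPHA2 reads ephrins that sit on neighboring cells.

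The level of a probe is given as a scaled signal, its deposited processed signal divided by the 75th percentile of its array (1819 to 2421 signal units). A ratio is the log2 of one scaled signal over another, and a gene was called higher or lower when it differed at least 2-fold. The program's mark for well above background was given to 56.9% to 62.9% of the probes, and no spot was saturated. The brightest negative control spot stood at 77.5 to 250.1 signal units, the highest of them on the array of untreated p53-/- MEFs, so weak signals there are within reach of background. Trp53, the gene that encodes p53, had scaled signals of 0.592 and 1.89 in WT MEFs without and with doxorubicin, against 0.235 and 0.224 in p53-/- MEFs. Its signal was thus lower on both arrays of p53-/- MEFs, but whether the probe lies in the deleted part is not given in the sources used here. All 9 fibroblast markers that are not among the receptors, such as Col1a1 and Vim, were well above background on every array. Of 6 endothelial markers 2 to 3 were well above background, with Pecam1 and Kdr on all arrays and Cdh5 and Tie1 on none. Of 8 leukocyte markers on the array 5 to 7 were, among them Itgam (26263.9 to 31690.6 signal units), Csf1r and Cd3e. Of 8 epithelial markers 4 to 6 were, among them Krt8 and Krt18 on all arrays, while Epcam and Cldn4 were on none. Probes spotted 10 times gave an SD of 0.06 on the log2 scale between spots of 1 array, so that a ratio carries 0.08 and the difference of 2 ratios 0.12. That spread covers spots on 1 array, not cultures.

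All 10 receptors were well above background on all 4 arrays. In WT MEFs, doxorubicin went with higher Met, Ddr1 and Epha2 (3 of 10) and lower Pdgfra, Pdgfrb and Ddr2 (3 of 10), while 4 receptors stayed within 2-fold. Over the 17505 genes measured there, 11.0% were higher and 10.4% were lower by the same rule. In p53-/- MEFs, Epha2 was higher (1 of 10) and Pdgfrb, Egfr and Ddr2 were lower (3 of 10), beside 9.25% of 16945 genes higher and 6.89% lower. The median log2 ratio of the 10 receptors was -0.19 in WT and -0.52 in p53-/- MEFs, where that of all genes was 0.01 and 0.00. Epha2 rose, and Pdgfrb and Ddr2 fell, in both genotypes. The receptors moved in opposite directions from each other, with ratios from -3.36 to 2.52 in WT MEFs and from -1.73 to 1.90 in p53-/- MEFs. In 6 of the 30 pairs of conditions that follow each other in the order of a receptor's levels, the levels differed by no more than the spread between spots. These pairs were the untreated arrays for Pdgfrb, Fgfr1 and Epha2, the doxorubicin arrays for Fgfr2 and Ddr2, and doxorubicin-treated WT against untreated p53-/- MEFs for Egfr. The spread used, 0.08, rests on a median over 253 repeat probes well above background on all arrays. Weak probes can spread more. The 10 spots of the dimmer Fgfr2 probe had an SD of 17.3% of their mean in untreated WT MEFs. The count may thus miss pairs of weak receptors.

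**Figure D1:**
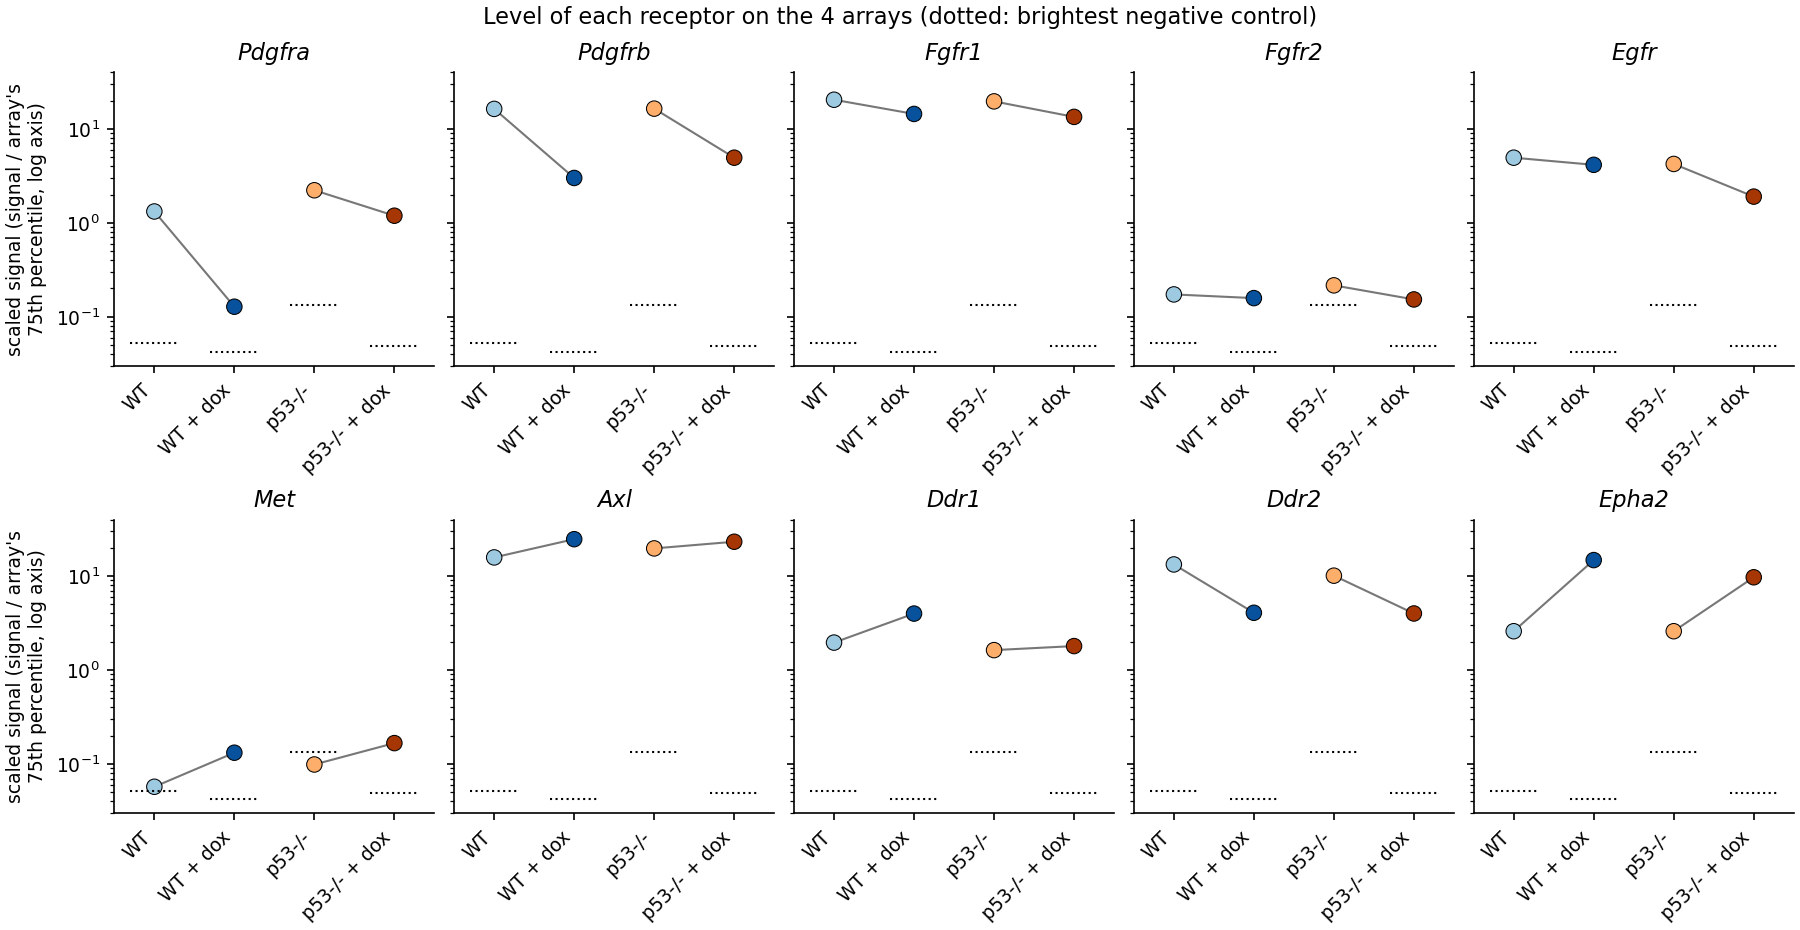
Scaled signal of each receptor (log axis) in WT and p53-/- MEFs without and with doxorubicin (dox), 1 point for each array, with the brightest negative control spot of that array as a dotted line. Pdgfra goes from 1.32 to 0.128 in WT MEFs and from 2.22 to 1.19 in p53-/- MEFs, Epha2 climbs in both genotypes, and Met in untreated p53-/- MEFs lies below the dotted line.

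Pdgfra, the receptor that binds PDGF-AA and other PDGF dimers, had the largest ratio among the receptors. The scaled signal without and with doxorubicin was 1.32 and 0.128 in WT MEFs, and 2.22 and 1.19 in p53-/- MEFs. The doxorubicin-treated WT array stood apart from the other 3. Its probe, at chr5:75593888-75593947 (mm9, plus strand), was spotted 10 times on each array. The spots of the WT pair gave 2728.0 ± 43.4 and 233.3 ± 19.1 signal units (SD over 10 spots of 1 array), and those of the p53-/- pair 4173.5 ± 127 and 2893.0 ± 83.4. Pdgfra fell by 3.36 on the log2 scale in WT MEFs, or 10.3-fold, and 58 of the 17505 genes fell further. In p53-/- MEFs the ratio was -0.89 (1.86-fold), short of 2-fold, and past it at -1.19 when arrays were scaled to their medians. The difference between the ratios, WT minus p53-/-, was -2.47, and 257 of 16505 genes had a lower one. In bulk RNA, fewer cells of a type and less RNA per cell cannot be told apart. The summed scaled signal of the 9 fibroblast markers was 723 and 579 in WT MEFs without and with doxorubicin, and 570 and 487 in p53-/- MEFs. Of these 9 markers, 2 fell in WT MEFs, Lum and Dcn, which encode matrix proteoglycans (-4.81 and -1.30), and Lum alone fell in p53-/- MEFs (-2.34). The others were within 2-fold, with ratios from -0.90 (S100a4) to 0.26 (Col1a1) in WT and from -0.80 (Col1a2) to 0.98 (S100a4) in p53-/- MEFs, and those of Vim were 0.02 and -0.04. The part of cell makeup in the Pdgfra result was not tested.

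The 250 bases before the start of Pdgfra, the receptor with the largest fall, and of Epha2, the receptor with the largest rise, are printed from RefSeq (GRCm38.p6) to show the sequence at these genes. They lie at chr5:75152001-75152250 and chr4:141300971-141301220, both on the plus strand. Capitals mark the motifs found.
Pdgfra: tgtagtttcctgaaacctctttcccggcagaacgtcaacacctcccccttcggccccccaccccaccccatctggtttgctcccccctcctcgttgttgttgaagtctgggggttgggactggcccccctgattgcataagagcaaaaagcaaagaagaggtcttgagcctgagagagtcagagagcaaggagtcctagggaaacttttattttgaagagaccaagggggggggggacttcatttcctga
Epha2: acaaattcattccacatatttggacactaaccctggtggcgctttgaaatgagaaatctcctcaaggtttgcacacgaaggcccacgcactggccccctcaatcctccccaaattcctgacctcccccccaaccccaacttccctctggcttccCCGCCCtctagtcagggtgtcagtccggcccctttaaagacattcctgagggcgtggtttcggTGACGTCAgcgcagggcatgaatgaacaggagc
The motifs searched, on both strands of windows of 300 bases that also hold the first bases of the transcript, were the p53 decamer, the cAMP response element TGACGTCA, the AP-1 motif TGANTCA and the Sp1 motif GGGCGG, and none of them contains another. The Epha2 window held the cAMP response element, as did 1.8% of 32851 windows of all genes, and the Sp1 motif in its reverse complement CCGCCC. Sp1 motifs were in 7 of the 11 windows of the receptors (of Axl, Ddr1, Egfr, Epha2 and Met) and in 35.7% of all windows. AP-1 motifs were in 2 windows of the receptors, those of Ddr1 and Met, and in 7.8% of all. No window of a receptor held the p53 decamer, which 8.4% of all windows did, and the Pdgfra window held none of the motifs. The windows covered 8 of the 10 receptors, without Fgfr1 and Pdgfrb. A match is a match of letters, not a bound site.

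**Figure D2:**
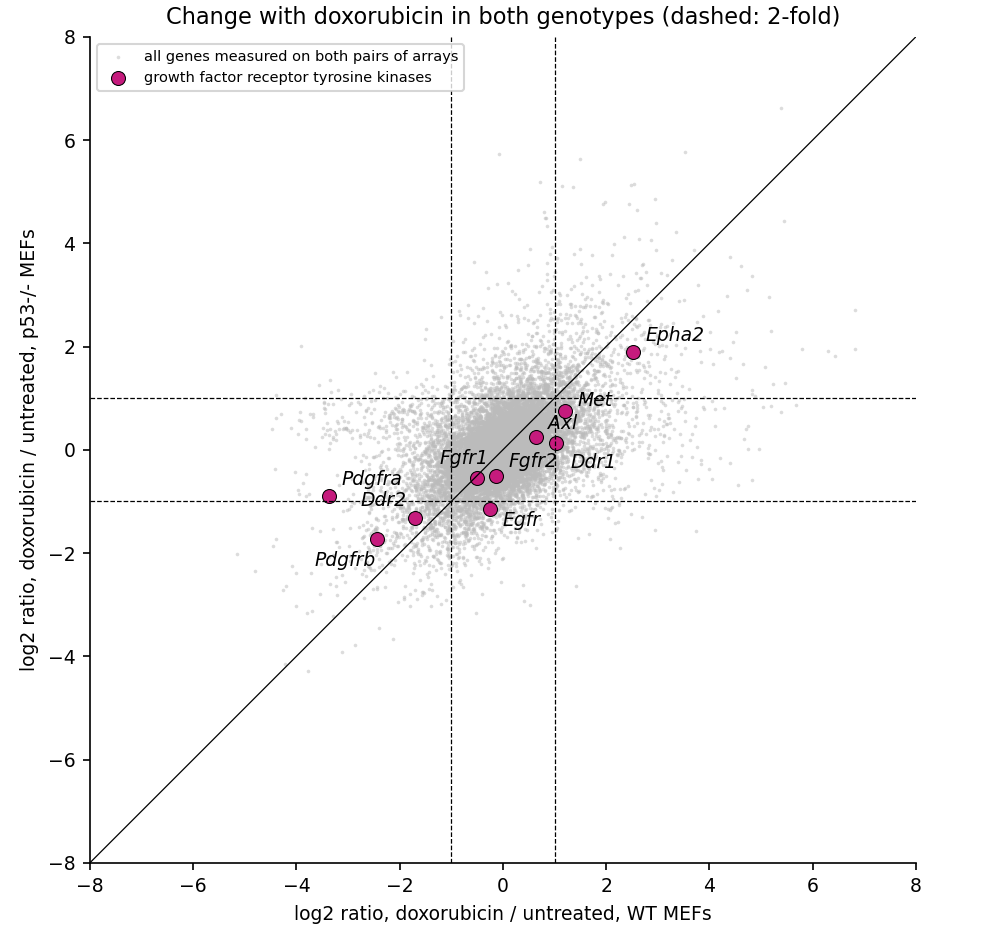
Log2 ratio of doxorubicin-treated over untreated MEFs, WT on the horizontal and p53-/- on the vertical axis, for the 16505 genes measured on all 4 arrays (gray) and the 10 receptors (named). Points on the diagonal changed equally in both genotypes. Pdgfra lies far to the left of it (-3.36 and -0.89), whereas Pdgfrb, Ddr2 and Epha2 are past the dashed 2-fold lines in both directions of the plot.

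Pdgfrb, the receptor for PDGF-BB, fell in both genotypes. The scaled signals were 16.3 and 3.0 in WT MEFs without and with doxorubicin, and 16.4 and 4.93 in p53-/- MEFs, from 1 spot at chr18:61244606-61244665 (mm9, plus strand). Both untreated arrays were high, at nearly equal levels, and both doxorubicin arrays were low. The ratio was -2.44 (5.43-fold) in WT MEFs, where 233 genes fell further, and -1.73 (3.33-fold) in p53-/- MEFs, where 276 of 16945 did. The difference of -0.71 was smaller than that of Pdgfra and under 2-fold.

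The PDGF ligands, read from a list of 26 ligands, went their own ways. Pdgfa had scaled signals of 11.6 and 30.2 in WT MEFs without and with doxorubicin (ratio 1.38) and of 5.48 and 5.07 in p53-/- MEFs (ratio -0.11). It was thus higher with doxorubicin in the cells in which its receptor Pdgfra was lower. Pdgfb rose in p53-/- MEFs, from 1.07 to 4.97 (ratio 2.21), and had a ratio of 0.56 in WT MEFs. Pdgfc fell by 1.79 on the log2 scale in p53-/- MEFs and had a ratio of -0.82 in WT MEFs, and Pdgfd, a ligand of PDGFRB, fell by 1.51 in WT and by 1.03 in p53-/- MEFs. These are levels of mRNA on the arrays, and no ligand protein was measured on them.

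Fgfr1 is the main fibroblast growth factor receptor of mesenchymal cells. Its brightest probe, at chr8:26685072-26685131 (mm9, plus strand), had scaled signals of 20.4 and 14.4 in WT MEFs without and with doxorubicin, and of 19.6 and 13.4 in p53-/- MEFs. The ratios were -0.50 and -0.55, so that the lower level with doxorubicin was alike in both genotypes and within 2-fold. Fgfr2, whose splice forms mark epithelium and mesenchyme, had the scaled signals 0.173, 0.158, 0.216 and 0.153 in the same order, from chr7:137307473-137307532 (mm9, minus strand). Its ratios of -0.13 and -0.50 were within 2-fold. All 4 of its signals, 287.4 to 406.3 units, were above the brightest negative controls of 77.5 to 250.1 units. The ligand Fgf7, which acts through a splice form of Fgfr2, fell by 2.67 on the log2 scale in WT MEFs and had a ratio of -0.56 in p53-/- MEFs. Fgf1 had ratios of -0.55 and 1.97 and Fgf5 of -2.04 and 0.23, but on the array of untreated p53-/- MEFs both were below the brightest negative control, with signals of 133.2 and 233.5, and Fgf5 in doxorubicin-treated WT MEFs was at 77.0, also below it.

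Egfr, the receptor for EGF, HB-EGF and epiregulin, was called lower with doxorubicin in p53-/- MEFs alone. By its brightest probe the scaled signal was 4.93 and 4.14 in WT MEFs without and with doxorubicin, and 4.23 and 1.90 in p53-/- MEFs. The doxorubicin-treated p53-/- array was the low one, and the other 3 lay close together. This probe, at chr11:16813815-16813874 (mm9, plus strand), was spotted 10 times and gave 7958.5 ± 209 and 4601.9 ± 87.3 signal units in p53-/- MEFs (SD over spots of 1 array). The ratios were -0.25 in WT and -1.15 (2.23-fold) in p53-/- MEFs. Their difference of 0.90 was under 2-fold, and a call in 1 genotype alone does not show that the genotypes differ. Over the mean of its 3 probes, Egfr had ratios of 0.24 and -0.69 and lost the call. Hbegf, a membrane-anchored EGFR ligand, rose from 4.87 to 10.5 in WT MEFs (ratio 1.11) and had a ratio of 0.37 in p53-/- MEFs, and Ereg, which encodes epiregulin, rose in both, with ratios of 1.32 and 1.97. Areg, another EGFR ligand gene, has no ratio because it was not well above background on the untreated arrays. Its signals without and with doxorubicin were 59.5 and 871.4 units in WT and 44.9 and 406.2 in p53-/- MEFs.

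Met, the receptor for hepatocyte growth factor, had signals close to background. Its scaled signals were 0.0573 and 0.132 in WT MEFs without and with doxorubicin, and 0.0989 and 0.167 in p53-/- MEFs, at chr6:17503299-17503358 (mm9, plus strand). Both doxorubicin arrays were above both untreated arrays. The signal of 118.9 units in untreated WT MEFs was just over the brightest negative control of 108.3, and that of 186.0 in untreated p53-/- MEFs was below the 250.1 of its array. The repeat spots spread widely at such levels, with an SD of 18.8 around 120.1 units in untreated WT MEFs. The ratio of Met was 1.21 (2.31-fold) in WT and 0.76 in p53-/- MEFs, and its call in WT MEFs was lost with normexp background correction (0.84), with quantile normalization (0.94) and with arrays scaled to their medians (0.93). Hgf, its ligand, fell by 2.54 on the log2 scale in WT MEFs, from a scaled signal of 0.261 to 0.0448, and had a ratio of -0.91 in p53-/- MEFs. The Hgf signal in doxorubicin-treated WT MEFs, 81.5 units, was just over the brightest negative control of 77.5, so the size of that fall is uncertain.

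Axl, a receptor of the TAM family, kept within 2-fold on all 4 arrays. Its scaled signals were 15.8 and 24.7 in WT MEFs without and with doxorubicin, and 19.7 and 23.2 in p53-/- MEFs, at chr7:26542541-26542600 (mm9, minus strand). The ratios of 0.64 and 0.24 were within 2-fold, and the second turned to -0.06 when arrays were scaled to their medians. Gas6, which encodes the ligand of AXL, differed by genotype instead. Gas6 was lower in p53-/- than in WT MEFs without doxorubicin (13.4 against 43.9, ratio -1.71) and with it (9.74 against 48.1, ratio -2.30). Pros1, which encodes a ligand of the TAM family and is counted in the list of ligands, had ratios of -1.08 and -1.55 in these comparisons. The ratios of Gas6 over untreated cells were 0.13 (WT) and -0.46 (p53-/-), and with doxorubicin against untreated cells neither ligand was called.

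Ddr2, the discoidin domain receptor that binds fibrillar collagen in fibroblasts, fell in both genotypes. The scaled signals were 13.3 and 4.07 in WT MEFs without and with doxorubicin, and 10.1 and 4.00 in p53-/- MEFs, at chr1:171903117-171903176 (mm9, minus strand). Both doxorubicin arrays were low, and their levels differed by 0.02 on the log2 scale. The ratios were -1.71 (3.27-fold) and -1.33 (2.52-fold), with 626 and 621 genes falling further in WT and p53-/- MEFs. Ddr1, the relative that is best known from epithelial cells, had scaled signals of 1.96, 3.99, 1.63 and 1.80 in the same order, at chr17:35818513-35818572 (mm9, minus strand). Only the doxorubicin-treated WT array was high. With ratios of 1.02 (2.03-fold) for WT and 0.14 for p53-/- MEFs, Ddr1 passed the 2-fold line narrowly, and with arrays scaled to their medians the ratios were 0.75 and -0.15. The collagen I genes, which encode a ligand of both, were within 2-fold, with ratios of 0.26 and -0.25 for Col1a1 and of -0.48 and -0.80 for Col1a2.

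Epha2, the ephrin-A receptor, had the largest rise in both genotypes. The scaled signals were 2.59 and 14.8 in WT MEFs without and with doxorubicin, and 2.59 and 9.71 in p53-/- MEFs, at chr4:140885139-140885198 (mm9, plus strand). Both doxorubicin arrays were high, and the untreated arrays were at 1 level. The ratios were 2.52 (5.73-fold) in WT MEFs, where 315 genes rose further, and 1.90 (3.74-fold) in p53-/- MEFs, where 397 did, and their difference was 0.61. Efna1, the ephrin-A1 ligand that EPHA2 binds, rose from a scaled signal of 0.334 to 2.42 in WT MEFs (ratio 2.86) and was at 0.243 and 0.161 in p53-/- MEFs (ratio -0.59). Another ligand of the family, Efna5, was just short of 2-fold lower in WT MEFs and fell by 1.78 on the log2 scale in p53-/- MEFs, and Efna4 had ratios of -0.69 and -1.40. Some epithelial markers were also higher on the doxorubicin arrays, as were Epha2, Met and Ddr1 in WT MEFs. The summed scaled signal of the 8 markers was 5.83 and 10.7 in WT MEFs without and with doxorubicin, and 5.50 and 18.2 in p53-/- MEFs, and 4, 6, 4 and 5 of them were well above background. Most of that sum was Krt18, a keratin measured on every array, with ratios of 0.91 and 1.91. Krt8 went the other way in WT MEFs (-0.46) and had 0.32 in p53-/- MEFs. Krt14 had ratios of 1.54 and 1.05 and Cldn7 of 1.10 and 1.27. In untreated p53-/- MEFs both were below the brightest negative control, at 178.9 and 219.1 signal units against 250.1. Krt5 was well above background in doxorubicin-treated WT MEFs alone. Epcam and Cldn4 were not well above background on any array, and Cdh1 was so only with doxorubicin, at 56.2 and 129.6 signal units. The first of these, in WT MEFs, was below the brightest negative control of its array, 77.5. Their part in the result was not tested.

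Between genotypes without doxorubicin, no receptor differed 2-fold, beside 2.15% of 17279 genes higher and 2.62% lower in p53-/- MEFs. The ratios of p53-/- over WT MEFs ran from -0.40 for Ddr2 to 0.79 for Met, and Pdgfra stood at 0.75. With doxorubicin, Pdgfra was higher in p53-/- MEFs by 3.22 on the log2 scale (9.34-fold), and 185 of 17884 genes were higher by more. Egfr (-1.12, 2.18-fold) and Ddr1 (-1.15, 2.22-fold) were lower in p53-/- MEFs, and the other 7 receptors were within 2-fold. That is 1 higher and 2 lower of 10, beside 11.9% and 10.3% of all genes measured. By the difference of ratios (WT minus p53-/-), none of the receptors was at least 2-fold higher and Pdgfra (1 of 10) was lower, beside 8.37% and 9.86% of 16505 genes. The other 9 differences were between -0.71 and 0.90. These comparisons share arrays, so they are not separate evidence on a receptor.

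For Fgfr1, Fgfr2, Egfr and Ddr2 the array holds several probes, 10 in all, and positions count from the start of the transcript each probe was designed on. Both Ddr2 probes were lower with doxorubicin in both genotypes, with ratios of -1.32 and -1.24 from base 2346 and of -1.71 and -1.33 from base 7551. For Egfr the probes disagreed in WT MEFs. The brightest, from base 5869 of one transcript, had a ratio of -0.25, and those from bases 2099 and 2188 of another had 0.43 and 0.53. In p53-/- MEFs the same 3 probes had ratios of -1.15, -0.74 and -0.17. The difference between genotypes was above 0 for all of them, at 0.90, 1.17 and 0.71, which is past 2-fold for the probe from base 2099. The 3 Fgfr1 probes had ratios between -0.67 and -0.06 in WT and between -0.61 and -0.55 in p53-/- MEFs. The Fgfr2 probes overlap on the transcript, and the one from base 3648, with ratios of 0.05 and -0.72, was at 174.0 signal units in untreated p53-/- MEFs, below the brightest negative control. Each of the following probes is shown because it reads its receptor at another place than the brightest probe does, or, for Met, because its weak signal is all there is for that gene. They lie in this order at chr11:16783556-16783615, chr8:26684061-26684120, chr6:17503299-17503358 and chr1:171914554-171914613 (mm9), with the Ddr2 probe on the minus strand and the others on the plus strand.
Egfr, from base 2099: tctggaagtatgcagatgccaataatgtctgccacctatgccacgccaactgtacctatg
Fgfr1, from base 2975: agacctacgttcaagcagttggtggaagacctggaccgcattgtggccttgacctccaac
Met, from base 3437: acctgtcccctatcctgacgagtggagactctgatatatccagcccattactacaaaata
Ddr2, from base 2346: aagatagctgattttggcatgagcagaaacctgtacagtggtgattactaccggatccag

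**Figure D3:**
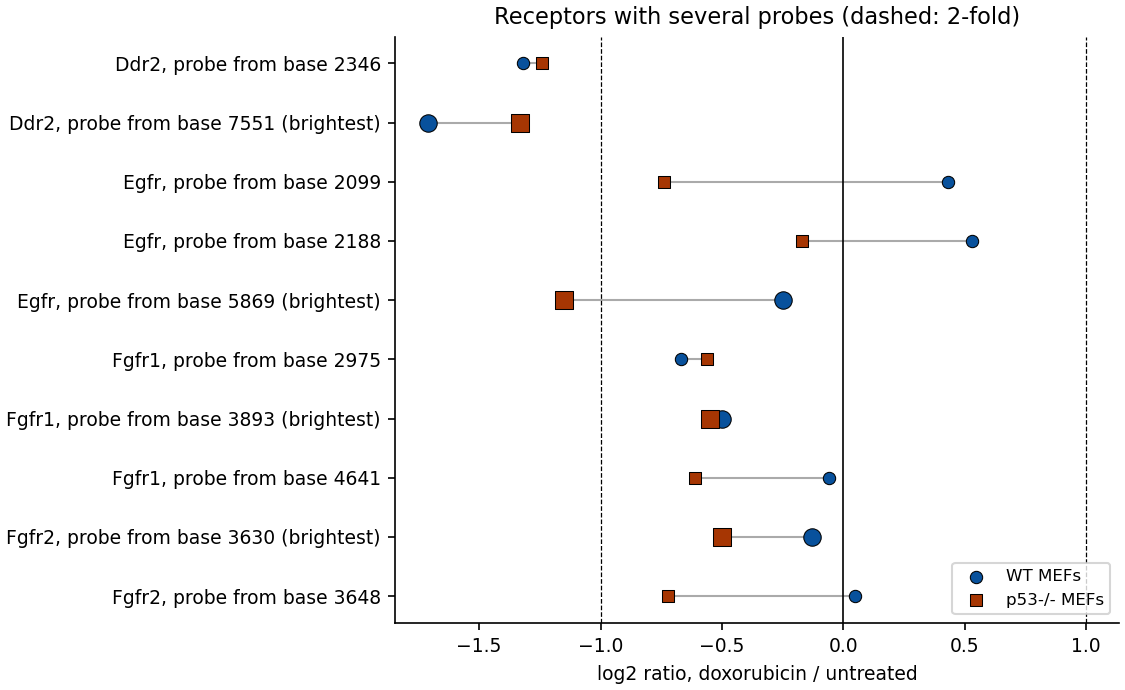
Log2 ratio of doxorubicin-treated over untreated MEFs for each probe of the 4 receptors with several probes, WT as circles and p53-/- as squares, with the larger symbols for the probe that stood for the gene. Both Ddr2 probes lie beyond the dashed 2-fold line, and the Egfr probes lie on both sides of 0 in WT MEFs.

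Set against each other by the distance between their levels over the 4 arrays, each centered on its own mean, Pdgfra was the farthest of the 10 from its nearest receptor. This was Pdgfrb, at a distance of 1.85, whereas Pdgfrb was nearest to Ddr2 (0.82) and Fgfr1 to Fgfr2 (0.34). Among the 16504 other genes measured on all arrays, those most like Pdgfra were Mfsd2a (distance 0.32), Hvcn1 (0.41) and Lgi2 (0.46). The ratios of Mfsd2a, a lipid transporter, were -2.91 (WT) and -0.85 (p53-/-). Hvcn1, a proton channel, had -3.86 and -0.64, and Lgi2 had -3.18 and -0.69. In doxorubicin-treated WT MEFs, Lgi2 was at a scaled signal of 0.0274, below the brightest negative control of 0.0426, and Hvcn1 at 0.0656 was close to it. These genes were picked by the same levels that give the ratios, so the likeness of their ratios to those of Pdgfra follows from the choice.

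The genes next to the receptors on the chromosome, 1 on each side by the order of GRCm38.p6, were counted in the same way. Of the 15 measured in WT MEFs, 2 were higher with doxorubicin and none lower (11.0% and 10.4% of all genes), and of the 14 in p53-/- MEFs, 3 were higher and 1 lower (9.25% and 6.89%). With arrays scaled to their medians, a choice made for these genes after seeing the values, Cav1 in WT (0.80) and Kit in p53-/- MEFs (0.75) lost their calls and Arhgef19 in p53-/- MEFs gained one (-1.22). The shares above do not apply under that scaling. Kit, a receptor tyrosine kinase beside Pdgfra, had ratios of 0.96 and 1.05, in the direction opposite to Pdgfra, and was higher in untreated p53-/- than in WT MEFs (2.08). Its signal in untreated WT MEFs, 97.0 units, was below the brightest negative control of 108.3. Csf1r, the receptor beside Pdgfrb, had -0.63 and 0.06. Cav1 (caveolin-1), beside Met, rose in both genotypes (1.08 and 1.5). Arhgef19, beside Epha2, had a ratio of 2.30 in WT MEFs but of -0.93 in p53-/- MEFs, a difference of 3.22, while Epha2 rose in both. The other calls, all in p53-/- MEFs, were Cyp2s1 beside Axl (1.57) and Ate1 beside Fgfr2 (-1.03).

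Of 49 genes listed as other receptor tyrosine kinases, 35 were measured in WT MEFs with 5 higher and 8 lower, and 34 in p53-/- MEFs with 5 higher and 7 lower. For all genes the shares were 11.0% and 10.4%, and 9.25% and 6.89%. With arrays scaled to their medians, Kit, Alk and Styk1 lost their calls in p53-/- MEFs and 2 were higher. In WT MEFs, Fgfr3 (-1.25) and Fgfr4 (-1.0) gained calls as lower. The shares above do not apply under that scaling. The medians of the list were -0.11 and -0.32. Not all genes of the list are established tyrosine kinases, such as Fgfrl1, Lmtk2, Lmtk3 and Aatk. Aatk is among the 8 lower in WT MEFs. Among those measured, the ephrin receptor Epha3 fell most in both genotypes (-2.43 and -2.66), against the rise of its relative Epha2. Ephb6, which lacks kinase activity, rose most of those measured (1.85 and 1.53). Genes not well above background on both arrays have no ratio, such as Epha8 and Ror1. Without and with doxorubicin, Epha8 had 14.4 and 207.2 signal units in WT and 24.1 and 468.8 in p53-/- MEFs. Ror1 had 271.9 and 22.1 in WT and 144.1 and 20.8 in p53-/- MEFs. Insr and Igf1r, the receptors of insulin and IGF1, fell in both, with ratios of -1.44 and -1.90 and of -1.27 and -2.11. The largest differences between genotypes were those of the neurotrophin receptor Ntrk3 (0.87 in WT and -1.24 in p53-/- MEFs), the pseudokinase Ptk7 (0.27 and -1.69), Epha7 (0.29 and -1.41) and Ephb4 (-1.63 and -0.18).

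Ligands of the 10 receptors were measured for 21 genes in each genotype, with 5 higher and 5 lower in WT MEFs (median -0.48) and 3 higher and 5 lower in p53-/- MEFs (median -0.39). Areg, not well above background on the untreated arrays, is not among those measured. The shares of all genes were 11.0% and 10.4% for WT, and 9.25% and 6.89% for p53-/- MEFs. With arrays scaled to their medians the WT counts were 3 and 8, since Fgf18 and Hbegf lost their calls and Pdgfc, Efna2 and Efna5 gained one. In p53-/- MEFs, Hgf (-1.21) gained a call as lower. The shares above do not apply under that scaling, so its counts cannot be set beside them. Besides the ligands given above, Fgf18 was called higher in WT MEFs (1.10) and Fgf9 lower in both genotypes (-1.25 and -1.66). Between doxorubicin-treated p53-/- and WT MEFs, 5 of 22 ligands were higher and 8 were lower in p53-/- MEFs, with a median of -0.79, beside 11.9% and 10.3% of all genes.

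Of the adaptors and effectors that dock to the receptors, 25 were measured in WT MEFs with 1 higher and 2 lower (11.0% and 10.4% of all genes), and 23 in p53-/- MEFs with 1 higher and 2 lower (9.25% and 6.89%). The medians were -0.27 and -0.13. The same 3 genes were called in both genotypes, but with arrays scaled to their medians Irs2 was at 0.89 and 0.99, and none were higher and 4 lower in each genotype. The shares above do not apply under that scaling. Irs2, an adaptor of the insulin receptor, rose (1.16 and 1.28), and Shc2, an SHC adaptor (-2.68 and -2.33), and the SRC family kinase Fyn fell. The largest differences in this list were all under 2-fold, those of Stat3 (-0.92 in WT and -0.13 in p53-/- MEFs), Pik3cb (0.92 and 0.36), Irs1 (-0.37 and -0.92) and Shc1 (-0.43 and -0.01).

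Among negative regulators, 1 of 22 was higher and 3 were lower in WT MEFs (median -0.23; 11.0% and 10.4% of all genes), and none of 21 was higher and 3 were lower in p53-/- MEFs (median -0.27; 9.25% and 6.89%). With arrays scaled to their medians, 6 were lower in WT and 7 in p53-/- MEFs, and Ptprj in WT MEFs (0.89) lost its call. The list also holds the proteases Adam10 and Adam17, which are not simple inhibitors of receptors, and Adam10 (-1.06) is among the 6 in WT MEFs. Grb10, an adaptor that inhibits insulin and IGF1 receptors, fell in both (-1.08 and -1.91), as did Sh3kbp1. Cblb, a ubiquitin ligase that marks receptors for degradation, fell in p53-/- MEFs (-1.89) and had a ratio of -0.88 in WT MEFs. Grb14, a relative of Grb10, fell in WT MEFs (-1.82) and had -0.21 in p53-/- MEFs. The receptor phosphatase Ptprj rose in WT MEFs (1.17) and had -0.42 in p53-/- MEFs, and the phosphatase Ptpn1 had 0.57 and 0.43. The medians of these 4 lists stand beside 0.01 and 0.00 for all genes.

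**Figure D4:**
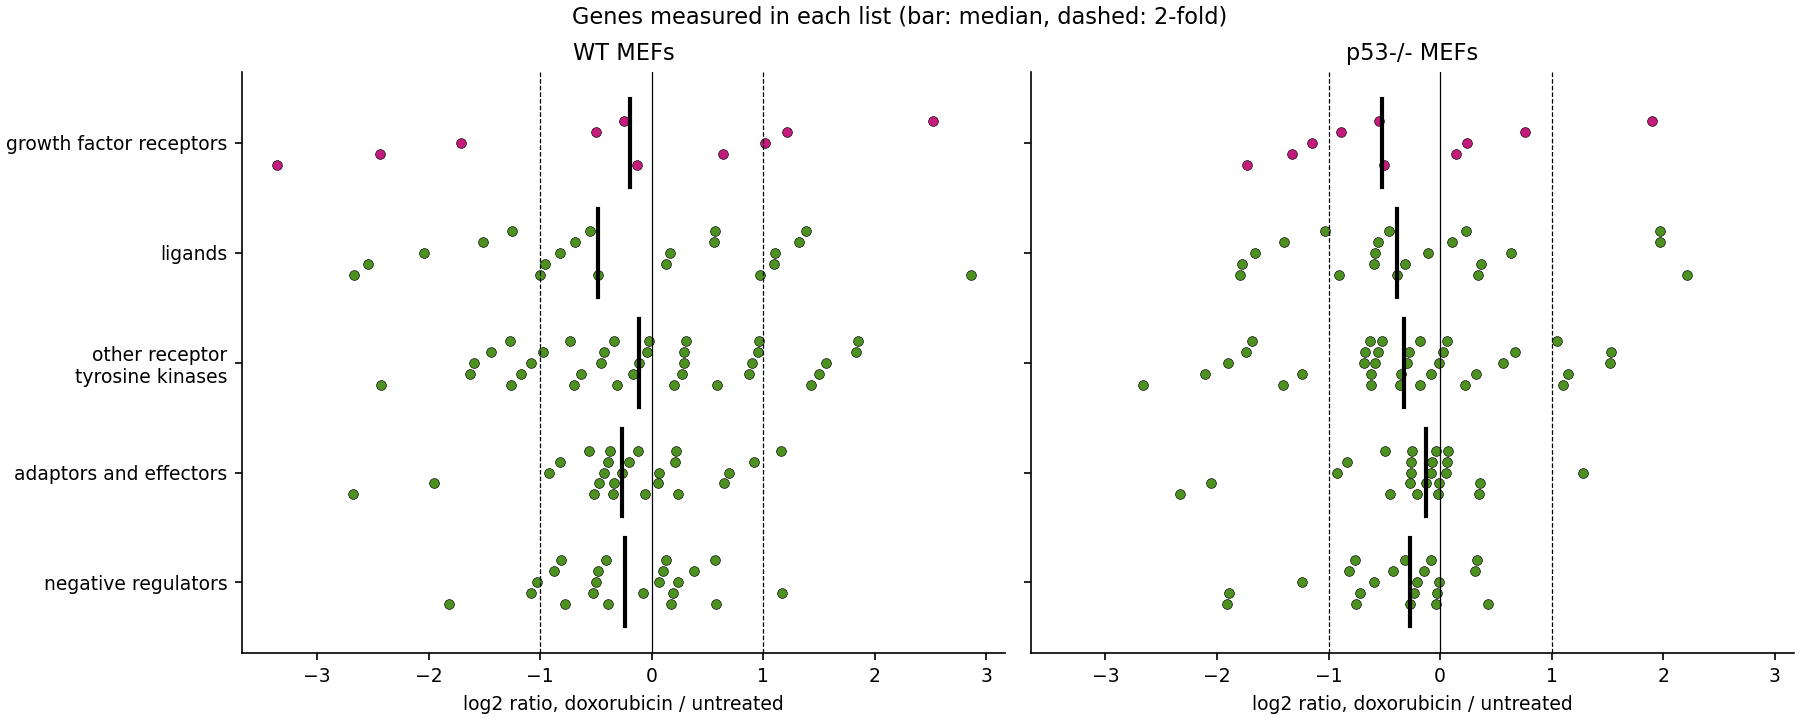
Log2 ratio of doxorubicin-treated over untreated WT (left) and p53-/- MEFs (right) for the measured genes of each list, 1 point for each gene, with the list's median as a bar and 2-fold as dashed lines. The 10 receptors spread from -3.36 to 2.52 on the left and from -1.73 to 1.90 on the right, and the adaptors have medians of -0.27 and -0.13.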

How the data were processed

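For each of the 4 one-color arrays, 200 ng of total RNA was converted to Cy3-labeled cRNA. The authors read them with Agilent Feature Extraction 10.7.3.1 (version per the headers of the scanner output). The deposited processed intensity of a spot is background-subtracted and detrended within its array, but not normalized between arrays. A deposited table of intensities for all arrays held the same values at all 177588 spot values compared (0 off by over 1e-05, relative). The deposited mean and background intensities served normexp alone. Deposited flags, other values coded 0 or 1 by the program, marked spots well above background, saturated or outliers.

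Here, outlier spots (145 to 168 per array) were left out, the log2 signals of repeat spots were averaged, and the 75th percentile of 39429 probes was subtracted. Each gene was read from the probe whose mean over the arrays was highest, and counted as measured where well above background on the arrays compared. Precision is limited by the number of arrays, 1 per condition, and no test was run. Names came from RefSeq (GRCm38.p6) for 30197 probes, and 9232 kept the file's name. Probe positions are the files' (mm9). The distance between 2 genes is Euclidean, over their log2 levels on the 4 arrays, each minus its mean.

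The receptors and lists were chosen with earlier results of these data known. Named were all receptors, and from each list the 4 largest differences and the largest rise and fall in each genotype, among genes measured. The other ligands, kinases, neighbors and markers given by value were chosen after their values were seen. Alternatives were the array median, quantile normalization, normexp (limma, offset 50), other filters on dim probes, the mean over all probes of a gene, the deposited table in place of the scanner files, and lines at 1.5-fold and 3-fold. A block for the slide could not be fitted with 1 slide. The reading of genes from probes, the percentile scaling and the ratios were tested on simulated data. The filters, the other scalings, normexp, the lists, neighbors, distances and the motif search were not. Python 3.11.15 with numpy 2.4.6, pandas 2.3.3 and matplotlib 3.10.9, and R 4.3.3 with limma 3.58.1, were used.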

Additional observations from a re-analysis of the deposited data

Results flagged for a closer look

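Among the 10 receptors and the 23 genes named by rule from the lists, 2 moved in opposite directions in the 2 genotypes by over 1.5-fold each. The 23 genes include those with the largest differences between genotypes in each list, so they were picked on values that this rule uses. The share of all genes that meet the rule was not counted, so the count is no result about these genes. Efna1, a ligand of EPHA2, had a ratio of 2.86 with doxorubicin in WT and -0.59 in p53-/- MEFs, a difference of 3.45. The second of these ratios was only just past 1.5-fold. Ntrk3, a neurotrophin receptor, had 0.87 and -1.24, a difference of 2.11, from signals of 452.3 and 724.5 units in WT and 556.0 and 302.9 in p53-/- MEFs. With 1 array per condition, the difference was not tested for either gene. None of the 10 receptors met this rule.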

How the results depend on the processing

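Of 50 ratios and differences of the 10 receptors, 40 kept their sign and 45 their side of the 2-fold line under 7 alternatives. The deposited table and both other filters on dim probes are among these 7 and could not change a receptor. The 10 whose sign turned were small, from -0.25 to 0.24. The 5 that crossed it were Pdgfra in p53-/- MEFs (-0.89, and -1.19 with arrays scaled to their medians), Egfr in p53-/- MEFs (-1.15, and -0.69 over the mean of its probes) and between doxorubicin-treated genotypes (-1.12, and -0.80), Met in WT MEFs (1.21, and 0.84 with normexp) and Ddr1 in WT MEFs (1.02, and 0.75 with the array median). The cause was not tested. Scaling to the array median shifted the median over all genes, to -0.27 (WT) and -0.30 (p53-/-), and the ratios above moved with it.

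Counts of receptors moved by over 1.5 times as follows. The shares of all genes under these other settings are not given here, so the counts are no result about the receptors. Higher with doxorubicin in WT MEFs were 3, but 1 with the array median, 1 with normexp and 1 at 3-fold, with 3 lower under the array median and normexp. In p53-/- MEFs, 1 was higher and 2 were at 1.5-fold, and 3 were lower and 1 was at 3-fold. Between untreated genotypes, 0 were higher and 2 were at 1.5-fold. Between doxorubicin-treated genotypes, 1 was higher and 2 were at 1.5-fold, and 2 were lower, 1 over the mean of probes and 0 at 3-fold. By the difference of ratios, 0 were higher and 3 were at 1.5-fold, and 1 was lower and 2 were at 1.5-fold. The deposited table and both other filters moved no value of a receptor by more than the spread between spots.

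Weak signals limit Met and Fgfr2, which come near the negative controls. No paired analysis was possible because each condition had 1 array.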
